A study of Mus musculus with 6 samples.

Results

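The 10 genes described here encode the MHC class II antigen presentation machinery and the co-stimulatory proteins that act beside it. They are H2-Aa, H2-Ab1, H2-Eb1, Cd74, Ciita, H2-DMa, H2-DMb1, Cd86, Cd80 and Cd40, and they were taken by gene symbol as 10 of the 38924 genes counted. The libraries came from WT (C57BL/6) female mice, which served as the controls of the study, and the mice had no treatment in the labels. Microglia, the resident macrophages of the brain, were isolated from whole brains after the meninges had been taken off, with magnetic beads carrying an antibody to CD11b. Each of the 6 libraries came from 1 mouse, 3 aged 5 weeks and 3 aged 24 weeks, and the Het libraries were not analysed here. CD11b is also carried by border-associated macrophages, monocytes, neutrophils and some NK and dendritic cells, so the bead isolation alone does not separate these from microglia. The libraries of each age were sequenced together in a lane of their own, and age and lane cannot be told apart.

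MHC class II molecules hold peptides from proteins that the cell has taken up and show them to CD4+ T cells. An alpha and a beta chain assemble on the invariant chain in the endoplasmic reticulum, cathepsins cut the invariant chain down in late endosomes, and H2-DM exchanges its remaining peptide for an antigenic one. T cell activation also needs co-stimulation, which CD80 and CD86 deliver through CD28, while CD40 carries the T cell signal back into the presenting cell. In the healthy brain, parenchymal microglia are known for low class II levels, and border-associated macrophages and dendritic cells for higher ones.

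The gene counts of a library summed to between 23198065 and 46434788 at 5 weeks and between 10410625 and 13554336 at 24 weeks, so a value at 24 weeks rests on fewer reads. Levels are given as CPM, counts scaled to a common library size, with TMM factors applied (normalized CPM). The microglia markers summed to 30900 to 34900 normalized CPM at 5 weeks and 25600 to 28600 at 24 weeks, with P2ry12 and Tmem119 high in all 6 libraries, as the label microglia requires. A pair of libraries stood apart. Xist, the RNA of the inactive X chromosome, had 31677 to 59021 counts in 5 libraries but 78 in 24-week replicate 3, which goes against the stated female sex of the mice. Among the 5-week libraries, replicate 3 differed most from the others. Its chi-square per degree of freedom on raw counts was 76.4 and 83.1 against the other 5-week libraries, which gave 15.9 against each other. This measure grows with depth, and 5-week replicate 3 was the deepest library (46434788 counts). The values between the shallower 24-week libraries (8.01 to 12.2) are therefore not on the same scale. Where a call or a size rests on either library, the value without it is given too.

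Between the ages, the class II chains, the invariant chain and their transactivator were higher at 24 weeks, by 1.58- to 1.92-fold, and Cd40 was higher by 1.9-fold. H2-DMb1, a subunit of the peptide exchange factor, was lower at 24 weeks, at 0.694 of its 5-week level, and H2-DMa, Cd86 and Cd80 did not pass the test. In all, 6 of the 10 genes were higher and 1 was lower with edgeR's quasi-likelihood test at an adjusted p under 0.05. Over all 16157 genes tested, 15.5% were higher and 13.3% lower, and the median log2 fold change was 0.70 over the 10 genes and 0.0037 over all genes tested. Without 24-week replicate 3, 1 of the 10 genes (Cd74) was higher and 1 (H2-DMb1) lower, against 11.7% and 9.02% of all genes tested in that fit. Without 5-week replicate 3 the counts were again 6 and 1, against 20.3% and 17.7%. Without both, they were 5 and 1, with Cd40 no longer past the threshold, against 19.5% and 17%. Without 5-week replicate 1, only Cd74 was higher (10.3% of all genes), without 5-week replicate 2, only Cd74 and Cd40 (13.7%), and without 24-week replicate 1, only Cd74, H2-Aa and H2-Eb1 (10.4%). Without 24-week replicate 2, H2-Ab1 and Ciita missed the threshold. These libraries are bulk samples, in which fewer cells of a type and less RNA per cell cannot be told apart.

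**Figure D1:**
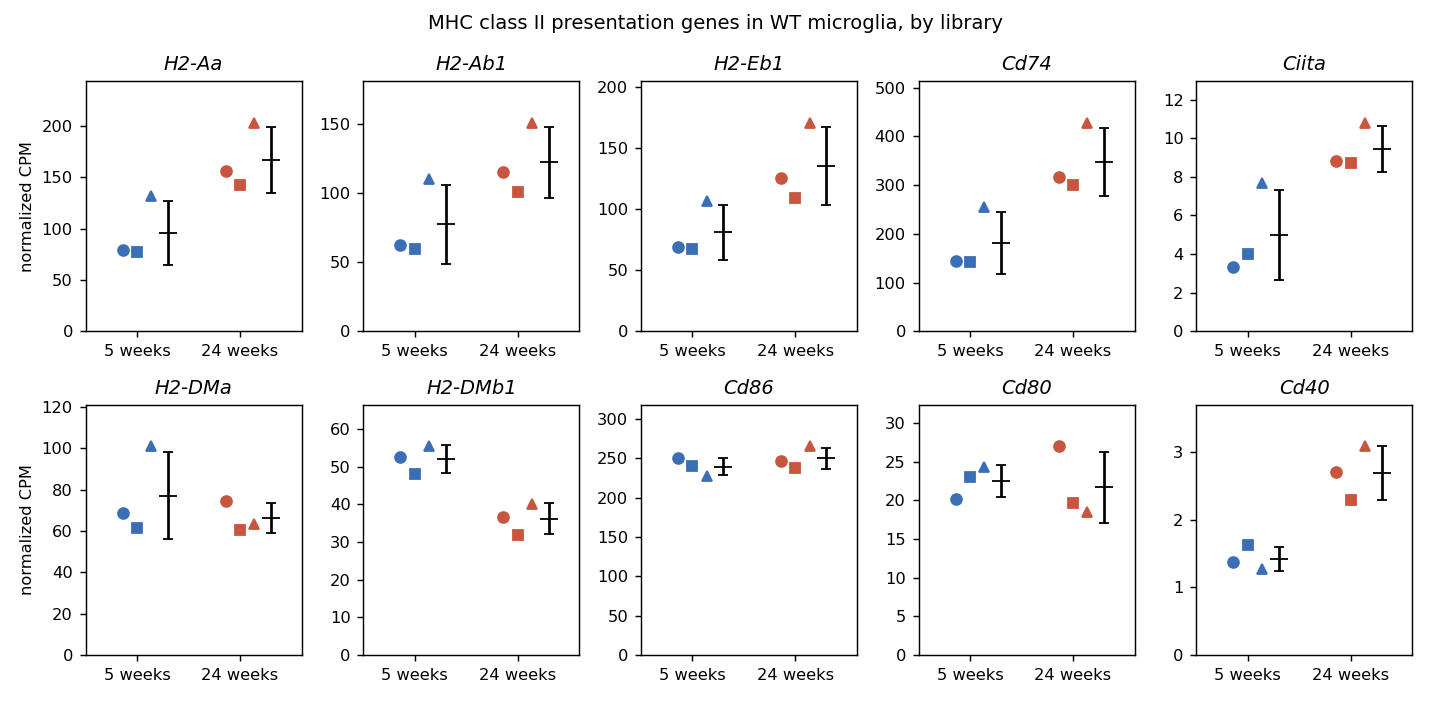
Normalized CPM (vertical axes, each from 0) of the 10 genes in each library at 5 weeks (blue) and 24 weeks (red), with circles, squares and triangles for replicates 1, 2 and 3 and a bar for the mean and SD (n = 3). H2-Aa, H2-Eb1, Cd74, Ciita and Cd40 do not overlap between the ages and are higher at 24 weeks, H2-DMb1 does not overlap and is lower, and the triangle is the highest of its age for the first 5 genes.

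H2-Aa encodes the alpha chain of the I-A molecule and lies on chromosome 17 (GRCm38, 34282744 to 34287823, minus strand). Its normalized CPM was 79, 76.8 and 132 in 5-week replicates 1, 2 and 3, and 156, 142 and 203 in 24-week replicates 1, 2 and 3. The ages did not overlap, although 5-week replicate 3 was close to the lowest 24-week library. H2-Aa was higher at 24 weeks by 0.80 on the log2 scale (SE 0.21, adjusted p = 0.0146), or 1.74-fold (95% interval 1.27 to 2.38). Without 24-week replicate 3 the log2 difference was 0.63 (adjusted p = 0.0599), and without 5-week replicate 3 it was 1.11 (adjusted p = 0.000297).

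H2-Ab1 encodes the I-A beta chain and lies beside it (chromosome 17, 34257689 to 34269419, plus strand). Its normalized CPM was 62.3, 59.6 and 110 at 5 weeks and 115, 101 and 151 at 24 weeks. This was the one class II chain whose ages overlapped, since 5-week replicate 3 was above 24-week replicate 2. The log2 difference was 0.66 (SE 0.23, adjusted p = 0.0482), or 1.58-fold (1.12 to 2.23). The call was close to the threshold, and it was lost without 24-week replicate 3 (log2 difference 0.48, adjusted p = 0.174), while without 5-week replicate 3 the difference was 1.01 (adjusted p = 0.000755).

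H2-Eb1 encodes the beta chain of the I-E molecule (chromosome 17, 34305867 to 34316674, plus strand). C57BL/6 mice do not express the I-E alpha chain, so in this strain the transcript has no partner chain of its own kind. Its normalized CPM was 69.2, 67.1 and 107 at 5 weeks and 126, 109 and 171 at 24 weeks, with no overlap but a small gap between 5-week replicate 3 and 24-week replicate 2. H2-Eb1 was higher by 0.74 (log2, SE 0.20, adjusted p = 0.0185), or 1.67-fold (1.23 to 2.26). The log2 difference was 0.53 (adjusted p = 0.0784) without 24-week replicate 3 and 0.997 (adjusted p = 0.00127) without 5-week replicate 3.

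Cd74, on chromosome 18, encodes the invariant chain, the chaperone that guides class II molecules to endosomes. Its normalized CPM was 145, 143 and 254 at 5 weeks and 316, 300 and 428 at 24 weeks. Every 24-week library was above every 5-week library. Cd74 had the largest log2 difference of the 10 genes, 0.94 (SE 0.22, adjusted p = 0.0087), or 1.92-fold (1.38 to 2.69), and was the only one of the 6 higher genes that passed in every alternative run. Its difference was 0.76 (adjusted p = 0.0355) without 24-week replicate 3 and 1.28 (adjusted p = 0.000187) without 5-week replicate 3.

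The 3 chains and Cd74 moved together from library to library. Their summed level was 356, 346 and 602 normalized CPM at 5 weeks and 713, 652 and 953 at 24 weeks. The means were 435 ± 145 and 773 ± 159 (SD, n = 3), a ratio of 1.78, and the ages did not overlap (two-sided exact permutation test, p = 0.1, the smallest that 3 against 3 libraries allow). Replicate 3 was the highest library at both ages, by well over the gap between replicates 1 and 2. It still was once trends on GC content and length had been taken out of each library, and Cd74 was then at 143, 144 and 220 at 5 weeks and 330, 317 and 448 at 24 weeks. For comparison, 45.1% of the genes in the fit had no overlap between 5 and 24 weeks.

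Within a library, the ratios between these 4 transcripts varied far less than their levels. These ratios, and those further down, were chosen after the values were seen. H2-Ab1 was 0.789, 0.776 and 0.834 of H2-Aa in CPM at 5 weeks and 0.738, 0.71 and 0.745 at 24 weeks (exact permutation p = 0.1). Cd74 was 1.84, 1.86 and 1.93 times H2-Aa at 5 weeks and 2.02, 2.11 and 2.11 times at 24 weeks (exact permutation p = 0.1), with no overlap between the ages. H2-Eb1 was 0.81 to 0.875 of H2-Aa at 5 weeks and 0.771 to 0.844 at 24 weeks, with overlap (exact permutation p = 0.2).

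Class II promoters carry a conserved module, in which the X box is bound by the RFX complex and the Y box by NF-Y, and CIITA docks on the proteins bound there. Promoter windows from RefSeq (GRCm38.p6, 250 bases before to 50 after the gene start) were matched to 5 of the 10 genes. They were searched for GNAAC followed, 15 to 35 bases later on the same strand, by TGATTGG, letters chosen after the class II promoters had been seen. TGATTGG holds the reversed CCAAT box. The pair of motifs was found in the windows of H2-Aa, H2-Eb1 and H2-DMb1, with 26, 25 and 26 bases between them. It was not found in those of H2-DMa and Cd80. The H2-DMa windows (34122582 to 34122881 and 34125268 to 34125567) lay downstream of the gene start given below (34119541). So did the Cd80 window (38458683 to 38458982, gene start 38455561). Promoters at other starts of H2-DMa and Cd80 were not searched. Among 32851 promoter windows, 0.25% held the pair on the gene's strand, 0.569% on either strand, and 7.82% held TGATTGG on either strand. The stretches of the chains with a RefSeq window and of H2-Ob, a class II gene that moved the other way, are shown because the same motifs stand before genes that moved in opposite directions. Capitals mark the X box motif and the Y box motif.
H2-Aa, chr17:34287852-34287919, minus strand: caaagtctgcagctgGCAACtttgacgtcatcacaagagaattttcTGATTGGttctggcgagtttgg
H2-Eb1, chr17:34305761-34305827, plus strand: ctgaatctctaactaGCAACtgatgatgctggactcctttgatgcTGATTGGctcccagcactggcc
H2-Ob, chr17:34238803-34238867, plus strand: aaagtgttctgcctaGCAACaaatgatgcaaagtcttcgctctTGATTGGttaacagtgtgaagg
The bases between the motifs numbered 26 in H2-Aa, 25 in H2-Eb1 and 23 in H2-Ob, and the Y box motif began 50, 61 and 59 bases before the RefSeq gene start. H2-Oa and H2-Eb2 held the pair too, with 26 and 25 bases between, and the H2-DMb2 window held TGATTGG without the X box motif. A match of letters is a description of the window and says nothing of what is bound there in these cells.

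Ciita encodes the class II transactivator, which does not bind DNA itself and is the limiting regulator of class II transcription in most cells (chromosome 16, 10480059 to 10528418, plus strand). Its counts were low, 106, 91 and 332 at 5 weeks and 121, 118 and 116 at 24 weeks. In normalized CPM these were 3.31, 3.98 and 7.66 against 8.82, 8.71 and 10.8. The ages did not overlap, and 5-week replicate 3 stood far above the other 5-week libraries, as it did for the chains. Ciita was higher at 24 weeks by 0.90 (log2, SE 0.29, adjusted p = 0.0366), or 1.87-fold (1.21 to 2.89), but not past the threshold without 24-week replicate 3 (0.79, adjusted p = 0.106). Without 5-week replicate 3 the difference was 1.38 (adjusted p = 0.000561). For every 1000 normalized CPM of Cd74 there were 22.8, 27.8 and 30.2 of Ciita at 5 weeks and 27.9, 29.1 and 25.3 at 24 weeks (exact permutation p = 0.8). The ages overlapped in this ratio.

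**Figure D2:**
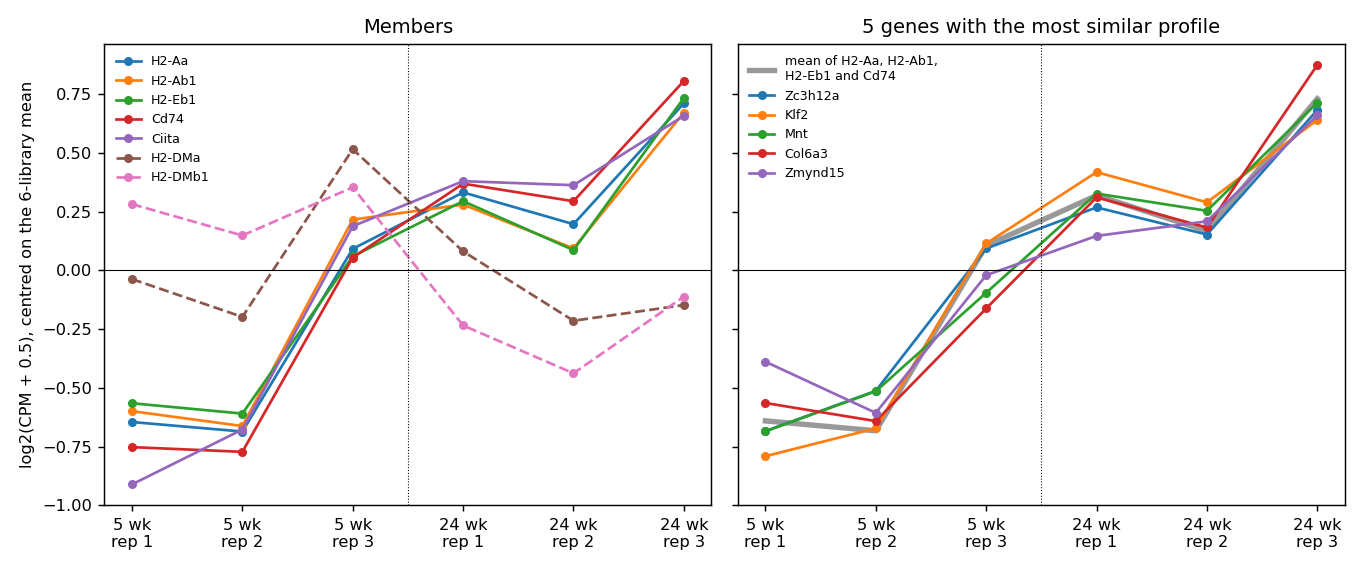
Centred log2(normalized CPM + 0.5) (vertical axis) in each of the 6 libraries (horizontal axis) for 7 of the 10 genes (left, H2-DM subunits dashed) and for the 5 other genes closest to the mean of H2-Aa, H2-Ab1, H2-Eb1 and Cd74 (right, grey line). Lines join the values of 1 gene and imply no order of libraries, and the chains, Cd74 and Ciita share high values in replicate 3 of each age while the H2-DM subunits are not higher at 24 weeks.

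The genes whose profile over the 6 libraries was closest to the mean of the 4 transcripts were sought among the 10118 genes whose log2 CPM averaged 3 or more. The measure of likeness was the root mean square difference of centred log2 values. The 4 transcripts themselves differed from their own mean by 0.02 (H2-Aa) to 0.09 (Cd74). The 5 nearest other genes were Zc3h12a (0.08), which encodes the RNase regnase-1, the transcription factor gene Klf2 (0.10), Mnt (0.11), which encodes a partner of MAX, the collagen gene Col6a3 (0.13) and Zmynd15 (0.14). Zc3h12a had 43.9, 49.5 and 75.6 normalized CPM at 5 weeks and 85.4, 78.8 and 114 at 24 weeks. Klf2 had 467, 507 and 875 at 5 weeks and 1080, 988 and 1260 at 24 weeks, so it also was highest in replicate 3 at both ages. Nlrc5, the transactivator of MHC class I genes, chosen after its values were seen, ranked 13 (0.15), with 17.5, 15.2 and 24.6 at 5 weeks and 30.2, 29.4 and 33.3 at 24 weeks. H2-DMa ranked 4922 and H2-DMb1 ranked 8512.

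H2-DMa and H2-DMb1 encode the subunits of H2-DM, the peptide exchange factor, and their transcripts did not follow the chains. H2-DMb1 (chromosome 17, 34153072 to 34160230, plus strand) had 52.7, 48 and 55.4 normalized CPM at 5 weeks and 36.7, 31.8 and 40 at 24 weeks. All 24-week libraries were below all 5-week libraries. H2-DMb1 was lower by -0.53 (log2, SE 0.12, adjusted p = 0.00829), or 0.694-fold (0.577 to 0.835), and remained so without 24-week replicate 3 (-0.61, adjusted p = 0.0136) and in every other alternative. The near-identical copy H2-DMb2 shares 179 of the 1579 windows of 100 bases, about the length of a read, in H2-DMb1 transcripts, or 11.3%, and a read that lies within them alone could not be assigned to either gene. H2-DMb2 had 7 to 9.32 normalized CPM at 5 weeks and 5.51 to 6.71 at 24 weeks (log2 difference -0.45, SE 0.18, adjusted p = 0.0826, and 0.0477 without 5-week replicate 2). With both summed before the fit, the difference was -0.52 (SE 0.12, adjusted p = 0.00779). No other gene of the 10 shares a window of this length with another.

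H2-DMa (chromosome 17, 34119541 to 34139101, plus strand) had 68.7, 61.4 and 101 normalized CPM at 5 weeks and 74.6, 60.7 and 63.6 at 24 weeks. The ages overlapped, and only 5-week replicate 3 lay outside the range of the others. The log2 difference was -0.22 (SE 0.17, adjusted p = 0.367), or 0.857-fold with an interval of 0.658 to 1.12, and it was 0.03 without 5-week replicate 3. The ratio of each subunit to the invariant chain was lower at 24 weeks, without overlap between the ages. Cd74 was itself higher at 24 weeks, so these ratios carry its difference too, and H2-DMa alone did not pass. H2-DMa was 0.473, 0.43 and 0.4 of Cd74 at 5 weeks and 0.236, 0.202 and 0.148 at 24 weeks (exact permutation p = 0.1). H2-DMb1 was 0.363, 0.336 and 0.218 of Cd74 at 5 weeks and 0.116, 0.106 and 0.0935 at 24 weeks (exact permutation p = 0.1).

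Cd86 (chromosome 16, 36603869 to 36666081, minus strand) encodes the main B7 ligand of CD28 on myeloid cells. Its normalized CPM was 250, 240 and 228 at 5 weeks and 246, 238 and 265 at 24 weeks, the tightest values of the 10 genes, with a coefficient of variation of 4.43% and 5.49%. The ages overlapped in part, with the lowest library at 5 weeks and the highest at 24 weeks. The log2 difference was 0.06 (SE 0.10, adjusted p = 0.694), or 1.04-fold with an interval of 0.891 to 1.22.

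Cd80 (chromosome 16, 38455561 to 38496335, plus strand) encodes the other B7 ligand, which binds CTLA-4 more tightly than CD28. It had 20.2, 23 and 24.3 normalized CPM at 5 weeks and 27, 19.7 and 18.5 at 24 weeks. The highest and the lowest library were both at 24 weeks. The log2 difference was -0.05 (SE 0.16, adjusted p = 0.841), or 0.967-fold (0.762 to 1.23), and its sign turned when some libraries were left out. In CPM, Cd86 was 9.39 to 12.4 times Cd80 at 5 weeks and 9.14 to 14.3 times at 24 weeks (exact permutation p = 0.7).

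Cd40 (chromosome 2, 165055627 to 165072948, plus strand) encodes the receptor of the T cell protein CD40 ligand. It rested on few reads, 44, 37 and 55 counts at 5 weeks and 37, 31 and 33 at 24 weeks. Its normalized CPM was 1.37, 1.62 and 1.27 at 5 weeks and 2.7, 2.29 and 3.08 at 24 weeks. The ages did not overlap, and unlike the chains, Cd40 was lowest in replicate 3 of the 5-week libraries. The log2 difference was 0.92 (SE 0.26, adjusted p = 0.0222), or 1.9-fold (1.27 to 2.82). It was 0.82 (adjusted p = 0.0808) without 24-week replicate 3 and 0.85 (adjusted p = 0.038) without 5-week replicate 3, and at least 50 counts in every library, one of the filters tried, left the gene out.

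**Figure D3:**
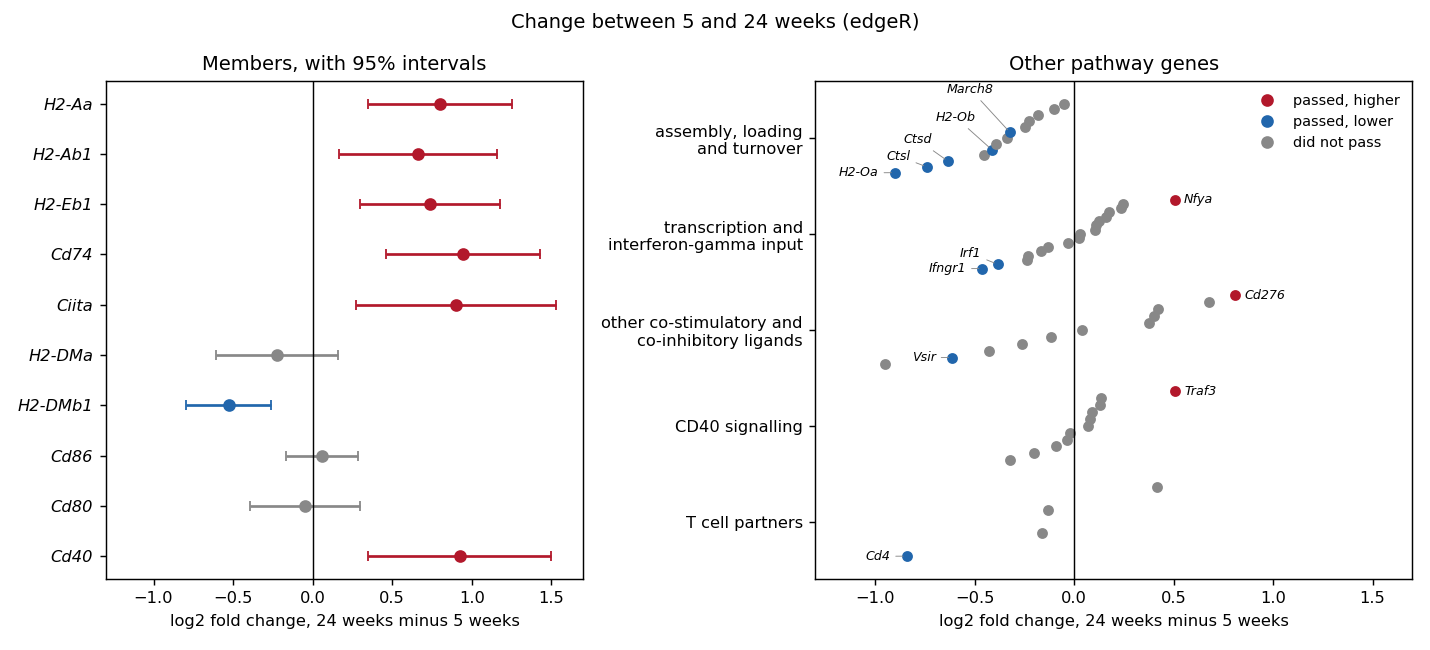
Log2 fold change, 24 weeks minus 5 weeks (horizontal axes), of the 10 genes with 95% intervals (left) and of the 56 tested genes of 5 pathway lists (right), in red where higher and blue where lower with an adjusted p under 0.05 and in grey where not past it. The chains, Cd74, Ciita and Cd40 lie between 0.66 and 0.94, while the 5 assembly and loading genes past the threshold lie between -0.90 and -0.32.

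To rank the genes by level, normalized CPM was divided by the kilobases of all exons of a gene. The CPM ratios between genes given above are not corrected for length. At 24 weeks Cd74 was the highest, at 207 ± 41.7, and no other gene overlapped it. H2-Eb1 (69.7 ± 16.5) and Cd86 (68.2 ± 3.74) overlapped each other, as did H2-Ab1 (47.6 ± 10.1) and H2-Aa (43.9 ± 8.37), and H2-DMb1 (21.5 ± 2.48) and H2-DMa (19.2 ± 2.12). H2-Eb1 also overlapped H2-Ab1 (56.2 to 88 against 39.2 to 58.8). Cd80 was at 5.87 ± 1.24, Ciita at 0.992 ± 0.125 and Cd40 at 0.79 ± 0.116, with no overlap between these (SD, n = 3).

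At 5 weeks the order was different in the middle. Cd74 was again first at 108 ± 37.7, followed by Cd86 at 65.4 ± 2.9 and H2-Eb1 at 41.6 ± 11.5, and neighbours among these did not overlap. H2-Eb1 (34.5 to 54.9) did overlap H2-Ab1 (23.2 to 42.8) and H2-Aa (20.2 to 34.7). H2-DMb1 (31 ± 2.24), H2-Ab1 (30.1 ± 11), H2-Aa (25.2 ± 8.19) and H2-DMa (22.4 ± 6.18) each overlapped the next, so their order was within the spread of the libraries. Cd80 stood at 6.08 ± 0.574, and Ciita (0.523 ± 0.246) and Cd40 (0.417 ± 0.0525) overlapped. Divided by the longest transcript instead, Cd74 stayed first and Cd80, Ciita and Cd40 last at both ages, but H2-Ab1 moved to second place at 24 weeks, at 101 ± 21.4.

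**Figure D4:**
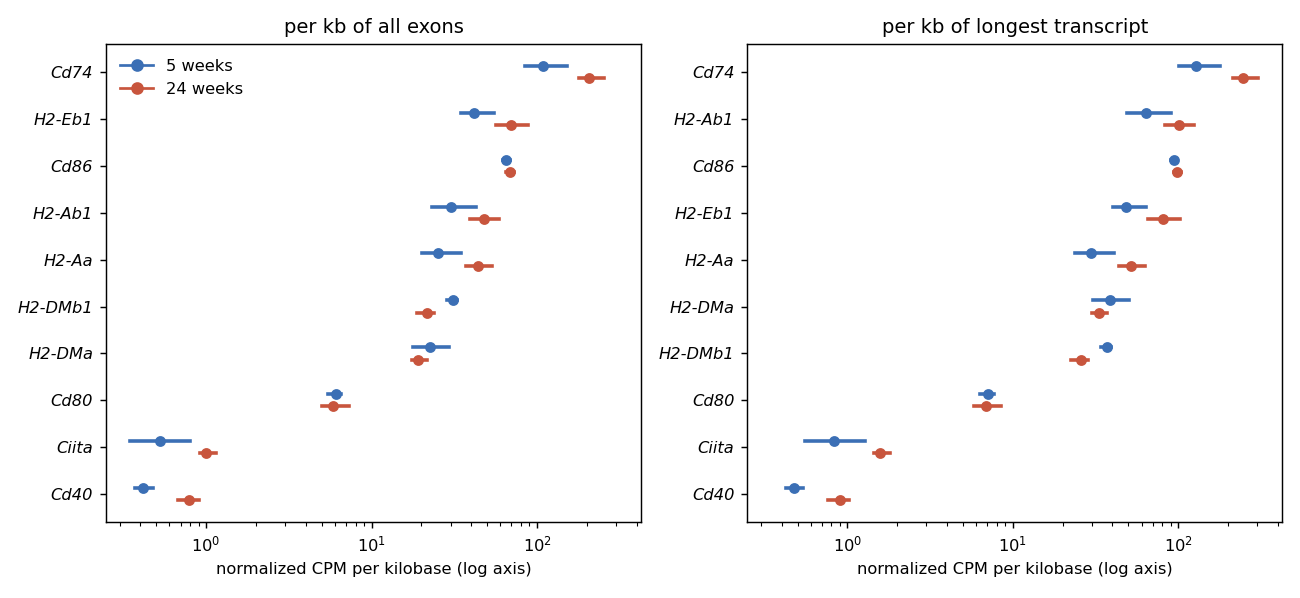
Normalized CPM per kilobase (horizontal log axis) of the 10 genes at 5 weeks (blue) and 24 weeks (red), by all exons (left) and by the longest transcript (right), with a point for the mean and a line from the lowest to the highest of 3 libraries. Cd74 lies to the right of all other genes in both panels and at both ages, and Ciita and Cd40 lie at about 1 or below except Ciita by the longest transcript at 24 weeks (1.57).

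A further 64 genes of the pathway were described as 5 lists, of which 56 genes were tested, 3 were higher, 9 were lower and 44 did not pass. Their median log2 fold change was -0.10. All genes tested had 15.5% higher and 13.3% lower. Without 24-week replicate 3, 4 were higher and 8 lower, against 11.7% and 9.02% of all genes. Without 5-week replicate 3 the counts were 12 and 13, against 20.3% and 17.7%, and without both they were 10 and 13, against 19.5% and 17%. Of 13 tested genes of assembly, peptide loading and turnover, 5 were lower and the other 8 did not pass (median -0.34). H2-Oa and H2-Ob encode the subunits of H2-DO, the inhibitor of H2-DM. H2-Oa had 18.3, 16.4 and 28.7 normalized CPM at 5 weeks and 12.7, 10 and 11.4 at 24 weeks (log2 difference -0.90, SE 0.21, adjusted p = 0.00856), and the difference was -0.61 without 5-week replicate 3 (adjusted p = 0.0082). H2-Ob had 49.6, 45.4 and 48.1 at 5 weeks and 36, 35.1 and 36.3 at 24 weeks (-0.41, SE 0.10, adjusted p = 0.0125), a call lost without 24-week replicate 2 (adjusted p = 0.0579). Both were lower at 24 weeks, in the direction of H2-DMb1 and against the chains.

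Ctsl and Ctsd encode the endosomal proteases cathepsin L and cathepsin D. Ctsl had 825, 740 and 717 normalized CPM at 5 weeks and 502, 408 and 457 at 24 weeks (-0.74, SE 0.12, adjusted p = 0.00151). Ctsd had 8110, 6750 and 9600 at 5 weeks and 5630, 4710 and 5430 at 24 weeks (-0.63, SE 0.17, adjusted p = 0.016). The call of Ctsd was lost without 5-week replicate 1 (adjusted p = 0.0539), 24-week replicate 1 (0.0528) or 24-week replicate 2 (0.0757). The fifth gene of the list past the threshold was March8, a ubiquitin ligase of class II and other surface proteins, named after its values were seen (-0.32, SE 0.10, adjusted p = 0.0343). Its call was lost without 5-week replicate 1 (adjusted p = 0.116) or any 1 of the 24-week libraries (0.117, 0.0777 and 0.105 without replicates 1, 2 and 3), with library totals only (0.123) and with the replicate block (0.0675). H2-Eb2, which had 0 to 8 counts, was not tested.

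Of 17 genes of class II transcription and interferon-gamma input, 1 was higher and 2 were lower (median 0.03), against 15.5% and 13.3% of all genes tested. Nfya, a subunit of the Y box factor NF-Y, had 122, 151 and 150 normalized CPM at 5 weeks and 217, 184 and 202 at 24 weeks (0.51, SE 0.12, adjusted p = 0.00927), and missed the threshold without 24-week replicate 1 (adjusted p = 0.0522). The interferon-gamma receptor gene Ifngr1 had 676, 618 and 618 at 5 weeks and 506, 430 and 454 at 24 weeks (-0.46, SE 0.12, adjusted p = 0.0128). Irf1, a transcription factor induced by interferon-gamma, had 97.9 to 114 at 5 weeks and 75.6 to 88.4 at 24 weeks (-0.38, SE 0.11, adjusted p = 0.0222). Without 5-week replicate 1 or 24-week replicate 2, Ifngr1 (adjusted p = 0.0539 and 0.068) and Irf1 (0.0628 and 0.104) missed the threshold, as did Irf1 without 24-week replicate 1 (0.08) and with library totals only (0.0525). The RFX complex genes, whose products bind the X box, did not pass. Rfx5 differed by 0.24 (SE 0.11, adjusted p = 0.112), but passed without 5-week replicate 3 (0.29, adjusted p = 0.0227) and with library totals only (adjusted p = 0.0275). Rfxap differed by -0.03 (SE 0.16, adjusted p = 0.908) and Rfxank by 0.03 (SE 0.15, adjusted p = 0.899).

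Among the other co-stimulatory and co-inhibitory ligands, 1 of 11 tested genes was higher and 1 was lower (median 0.04). Over all genes tested, 15.5% were higher and 13.3% lower. Cd276, a B7 family member, had 17.1, 17.7 and 22.7 normalized CPM at 5 weeks and 25.2, 34.3 and 41.8 at 24 weeks (0.81, SE 0.18, adjusted p = 0.00771). Vsir, which encodes the T cell inhibitor VISTA, had 2660, 2370 and 3060 at 5 weeks and 1790, 1710 and 1790 at 24 weeks (-0.61, SE 0.14, adjusted p = 0.00718). Of 11 genes of CD40 signal transduction, Traf3, an adaptor that CD40 recruits, was higher, with 45.6 to 52.2 at 5 weeks and 62.9 to 75.6 at 24 weeks (0.51, SE 0.11, adjusted p = 0.00697), and the other 10 did not pass (median over the list 0.07). With length and GC trends removed, Traf3 differed by 0.23 and did not pass (adjusted p = 0.0982). Of the T cell partners, 4 of 7 genes were tested and Cd4 was lower, with 6.81 to 8.56 at 5 weeks and 2.88 to 5.32 at 24 weeks (-0.84, SE 0.23, adjusted p = 0.0196, list median -0.15). The call of Cd4 was lost without 5-week replicate 1 (adjusted p = 0.0655) or 24-week replicate 2 (0.0737). Lag3, the highest of the list and named after its values were seen, had 185 to 253 at 5 weeks and 233 to 309 at 24 weeks. It did not pass (0.42, SE 0.15, adjusted p = 0.06). The T cell gene Cd3e had 0 to 2 counts, and which cells the Cd4 and Lag3 reads came from was not tested. Ifng had 1 to 11 counts in each library, and Cd40lg had 1 count in 1 library.

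Markers of the other cells that carry class II or CD11b were measured in the same libraries. For comparison, 15.5% of all genes tested were higher and 13.3% lower. The border-associated macrophage markers summed to 1390, 1320 and 1060 normalized CPM at 5 weeks and 696, 590 and 622 at 24 weeks (exact permutation p = 0.1), and 7 of 10 were lower by the edgeR test. The sum, of which Mrc1 made up 658 of a mean of 1260 at 5 weeks, was lowest of its age in 5-week replicate 3. The chains were highest of that age in the same library. Cd163 and Cbr2 were not lowest there, and Siglec1 was highest there at that age. Siglec1 differed in the other direction between the ages and did not pass (log2 difference 0.61, SE 0.21, adjusted p = 0.0512). The part of border-associated macrophages in the class II difference was not tested. The dendritic cell markers summed to 39.5, 40.4 and 53.7 at 5 weeks and 46.7, 44.8 and 46.2 at 24 weeks (exact permutation p = 1). Of these, 2 of 7 tested were higher at 24 weeks, Clec9a with 2 to 8 counts at 5 weeks and 10 to 12 at 24 weeks, and Cd209a (log2 difference 0.60, adjusted p = 0.0419), and Xcr1 had 2 to 12 counts. The dendritic cell sum was highest in 5-week replicate 3, as were the chains at that age, but 24-week replicate 3 was not raised. Looked at singly after the values were seen, Cd209a, Flt3 and Ccr7 were highest in replicate 3 at both ages, and the other markers of the list were not. Cd209a had 8.46, 7.61 and 12.8 normalized CPM at 5 weeks and 14.5, 13.7 and 16 at 24 weeks. It ranked 16 of 10118 genes in likeness to the 4 class II transcripts (0.15). The part of dendritic cells in the class II difference was not tested.

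The B cell markers summed to 77.7 to 90.7 normalized CPM at 5 weeks and 68.2 to 72.2 at 24 weeks. Most of this came from Bank1 and from Cd79b, which was lower at 24 weeks (log2 difference -1.32, adjusted p = 0.00032). Defining B cell markers were near 0, with 0 to 11 counts of Cd79a, 3 to 12 of Ms4a1 and 1 to 4 of Pax5. The T and NK cell markers summed to 7.8 to 19 at 5 weeks and 7.61 to 11.5 at 24 weeks, with 0 to 2 counts of Cd3e, and the 5 that were tested had edgeR adjusted p-values of 0.0858 to 0.872. The neutrophil and monocyte markers summed to 142 to 317 and 94.9 to 236, and 1 of 10 tested (Plac8) was lower, against 13.3% of all genes tested.

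Between the ages, the vascular markers differed in the same direction as the chains. The endothelial sum was 275, 308 and 262 normalized CPM at 5 weeks and 612, 581 and 602 at 24 weeks, with 9 of 10 markers higher, and the mural cell sum was 148 to 182 and 278 to 306, with 6 of 8 higher. Neither was raised in replicate 3 of either age, where the class II sum was highest, and their part in the class II difference was not tested. Of the microglia markers, 1 of 12 (Sall1) was higher and 4 were lower. The shares over all genes tested were 15.5% higher and 13.3% lower.

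**Figure D5:**
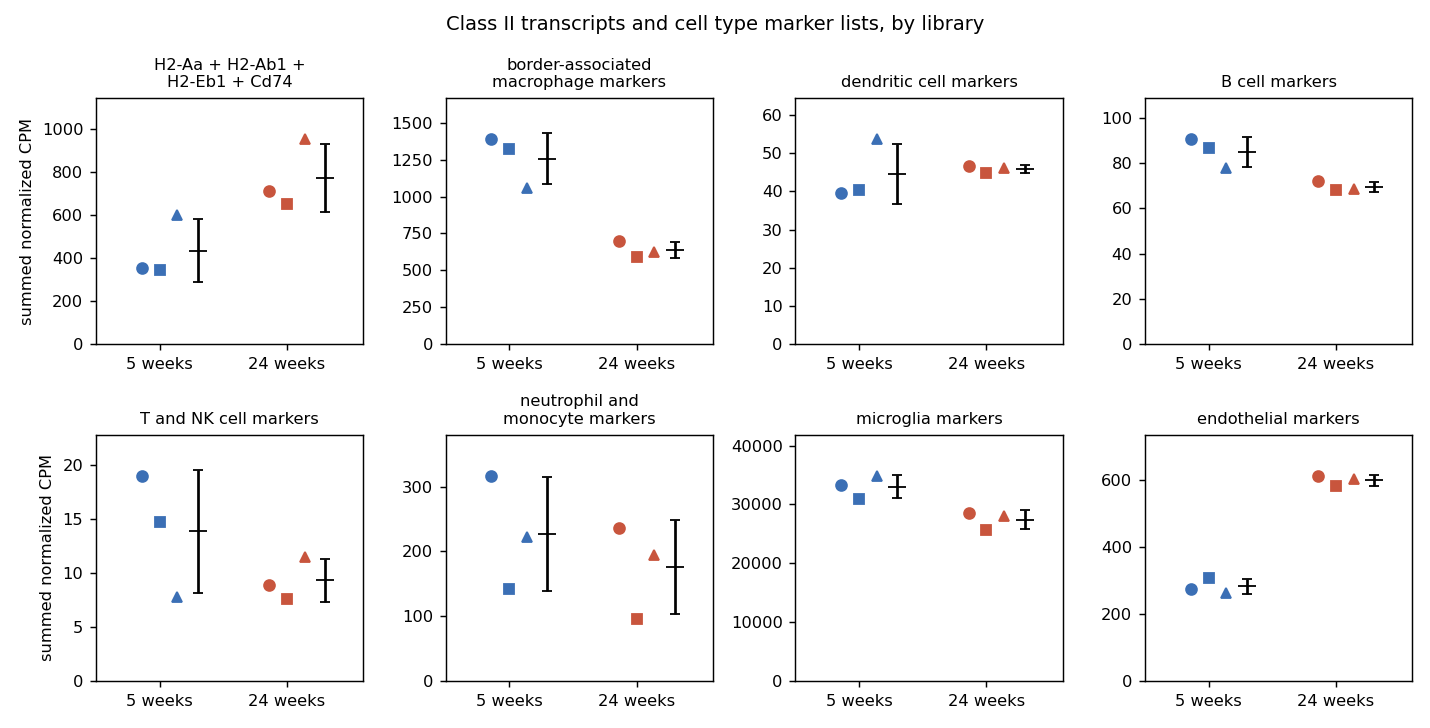
Summed normalized CPM (vertical axes, each from 0) of H2-Aa, H2-Ab1, H2-Eb1 and Cd74 and of 7 cell type marker lists in each library at 5 weeks (blue) and 24 weeks (red), with circles, squares and triangles for replicates 1, 2 and 3 and a bar for the mean and SD (n = 3). The class II sum (346 to 602 against 652 to 953) and the endothelial sum (262 to 308 against 581 to 612) are higher at 24 weeks, and the border-associated macrophage sum (1060 to 1390 against 590 to 696) is lower.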

How the data were processed

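RNA of CD11b+ brain cells was sequenced as strand-specific read pairs. After trimming (trim_galore) and alignment to GRCm38 (TopHat2 2.0.13), the authors counted uniquely placed pairs per Ensembl gene and strand with HTSeq 0.6.1. What the authors deposited are the raw counts, not normalized. The authors used DESeq2 1.6.3 for Het against WT. Rows naming no gene (60.6% to 65.8% of the counts of all rows) were left out. Of uniquely placed pairs, 40.0% to 41.8% matched no exon at 5 weeks and 48.7% to 54.9% at 24 weeks. Pairs placed at more than 1 site were 32.7% to 35.5% of all rows at 5 weeks and 22.5% to 23.5% at 24 weeks. Both shares differed between the ages without overlap, and age and lane cannot be told apart. Symbols and positions came from GENCODE M21, which matched 37607 identifiers.

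The test between ages was the quasi-likelihood test of edgeR 4.0.16 (R 4.3.3), with TMM factors, filtering by filterByExpr, age alone in the model and p-values adjusted by Benjamini-Hochberg over 16157 genes. The SE was taken as the log2 difference over the root of its F statistic. The fit was tested on simulated data. Sums and ratios per library were compared by two-sided exact permutation tests, which with 3 against 3 cannot go below 0.1, unadjusted for their number. The p-values measure the spread between 3 mice per age, and counting error is included in it.

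The members, the lists and the tests were chosen with earlier results of these data known. The text names the 10 members, of each pathway list up to 4 genes past the threshold in each direction with the smallest p, direct partners and copies of members, the 5 nearest profiles and Xist. Alternatives were other normalizations, DESeq2 1.42.0, limma 3.58.1 (voom), other filters, a replicate block, removal of each library's trends on length and GC content (mgcv 1.9.3), H2-DMb1 summed with H2-DMb2, and leaving out each library. Leaving out both replicates 3 was added after seeing the data. Same-strand exons overlap another gene only in Cd74 (12 bases, Mir5107).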

Additional observations from a re-analysis of the deposited data

How the results depend on the processing

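Cd74 was higher and H2-DMb1 lower, past the threshold, in every alternative (log2 difference 0.76 to 1.28, adjusted p 6.43e-06 to 0.046, and -0.61 to -0.36, adjusted p 0.00112 to 0.0486), and the other 5 higher genes kept their direction in each alternative that tested them. The summed class II level gave a ratio of 1.57 to 2.2 in its alternatives. The count of members higher ranged from 1 to 6 on leaving out 1 library, with 1 lower throughout. H2-Ab1 missed the threshold with DESeq2 size factors (adjusted p = 0.0576), nuclear protein-coding library sizes (0.0685) and at least 50 counts in every library (0.0589). Among other pathway genes, the number higher (3) became 10 with library totals only, 5 with no filter, 5 with the replicate block, 6 with length and GC trends removed, 10 without both replicates 3, and 2 to 12 on leaving out 1 library. The number lower (9) became 16 with length and GC trends removed and 3 to 13 on leaving out 1 library. Over all genes, higher and lower calls were 2505 and 2141, against 3229 and 1466 with library totals only, which moved the median of all genes to 0.10, and 2424 and 3305 with length and GC trends removed. These log2 differences, none past the threshold, changed sign. Cd80 was 0.0471 with totals only, 0.12 without both replicates 3 and -0.24 to 0.05 on leaving out 1 library. Rfxap was 0.0686 with totals only, 0.0217 with trends removed, 0.0293 without both replicates 3 and -0.15 to 0.0744 on leaving out 1 library. Rfxank was -0.0075 with no filter, -0.0349 with trends removed and -0.0685 to 0.23 on leaving out 1 library or both replicates 3. H2-DMa was 0.0629 without both replicates 3 and -0.38 to 0.03 on leaving out 1 library, and Cd86 was -0.0069 without both replicates 3 and 0.0122 to 0.0882 on leaving out 1 library. For these changes the cause was not tested. Same-numbered libraries came from different mice of different ages. They correlated by 0.045, 0.101 and -0.054 in their deviations from the age means, values that can neither show nor exclude a pairing. The replicate block left 6 members higher and 1 lower (Cd74 0.98, adjusted p = 0.000577; H2-Ab1 0.70, adjusted p = 0.00312). Depth limits Cd40 (31 to 55 counts) and Ciita most.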
